A study of Homo sapiens with 3 samples.

Results

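The genes of 5S ribosomal RNA lie side by side in band 1q42.13 of human chromosome 1, and peaks of the chromatin protein BEND3 in NTera2 cells were examined over this array. The peaks were chosen by position: all those overlapping 228740000 to 228790000 on chromosome 1 (hg19), a stretch proposed because a peak list already showed a group there, so that their number and strength are a description and carry no test. The stretch held 0 of the 216 peaks of BEND3 ChIP replicate 1 and 6 of the 1118 peaks of replicate 2. NTera2 is a human embryonal carcinoma line, grown here without any treatment named in the labels. From it came 2 libraries with an in-house rabbit antibody against BEND3 and 1 with rabbit IgG, the control of both peak lists per their names. The labels do not say that the 2 BEND3 ChIPs came from separate cultures, and no cells lacking BEND3 were part of the design. Depth per library is unknown, because the lists give no read numbers.

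5S rRNA is a small RNA of the large ribosomal subunit. It is transcribed by RNA polymerase III with the help of TFIIIA, which binds inside the gene, and its genes are near-identical copies in tandem. tRNA genes are read by the same polymerase from promoters that also lie within the gene. BEND3 carries BEN domains, which bind DNA, and is known as a repressor associated with heterochromatin and with ribosomal DNA, the separate arrays of the larger rRNAs.

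RefSeq (GRCh38.p14) lists 17 genes of the family, RNA5S1 to RNA5S17, with the pseudogenes RNA5SP19 before the first and RNA5SP18 after the last. RNA5S1, RNA5S2, RNA5S3, RNA5S4, RNA5S5, RNA5S6, RNA5S7, RNA5S8, RNA5S9 and RNA5S10 follow one another there with no other gene starting in between, and so do the genes up to RNA5S16. The peaks are in hg19 and this gene order is in another build, so no peak was assigned to a single gene copy, and that the stretch holds the 5S genes, or its comparison row the tRNA genes, was taken as known and not checked against an hg19 annotation. The values below therefore belong to the array and not to RNA5S1 or any other member. Reads from near-identical copies cannot be placed with certainty, and the sources used here do not say how the authors' alignment treated such reads.

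In replicate 2 the array carried a row of 4 peaks, a stretch without a peak, and a pair. The first peak, at 228751032 to 228752167, was the widest at 1136 bp and had a score of 618. The score is the authors' own value for a peak against IgG, and served here for ranks inside a list. What it measures is not stated, so a stronger peak here means only one with a higher score. The second lay at 228753188 to 228753580, with a width of 393 bp and a score of 625. The strongest of the 6 was the third, at 228758317 to 228758901 (585 bp, score 776). The fourth, at 228761820 to 228762157, was both the narrowest (338 bp) and the weakest (score 587). After 11.8 kb without a peak came the fifth, at 228773976 to 228774576 (601 bp, score 712), and the sixth, at 228776455 to 228776808 (354 bp, score 626). The scores of these 6 peaks thus ran from 587 to 776, and the widths differed 3.36-fold. The widest peak had the second lowest score, while among the other 5 the pair of 585 and 601 bp had the highest scores. They spanned 25.8 kb, of which 3407 bp (13.2%) lay under a peak.

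**Figure D1:**
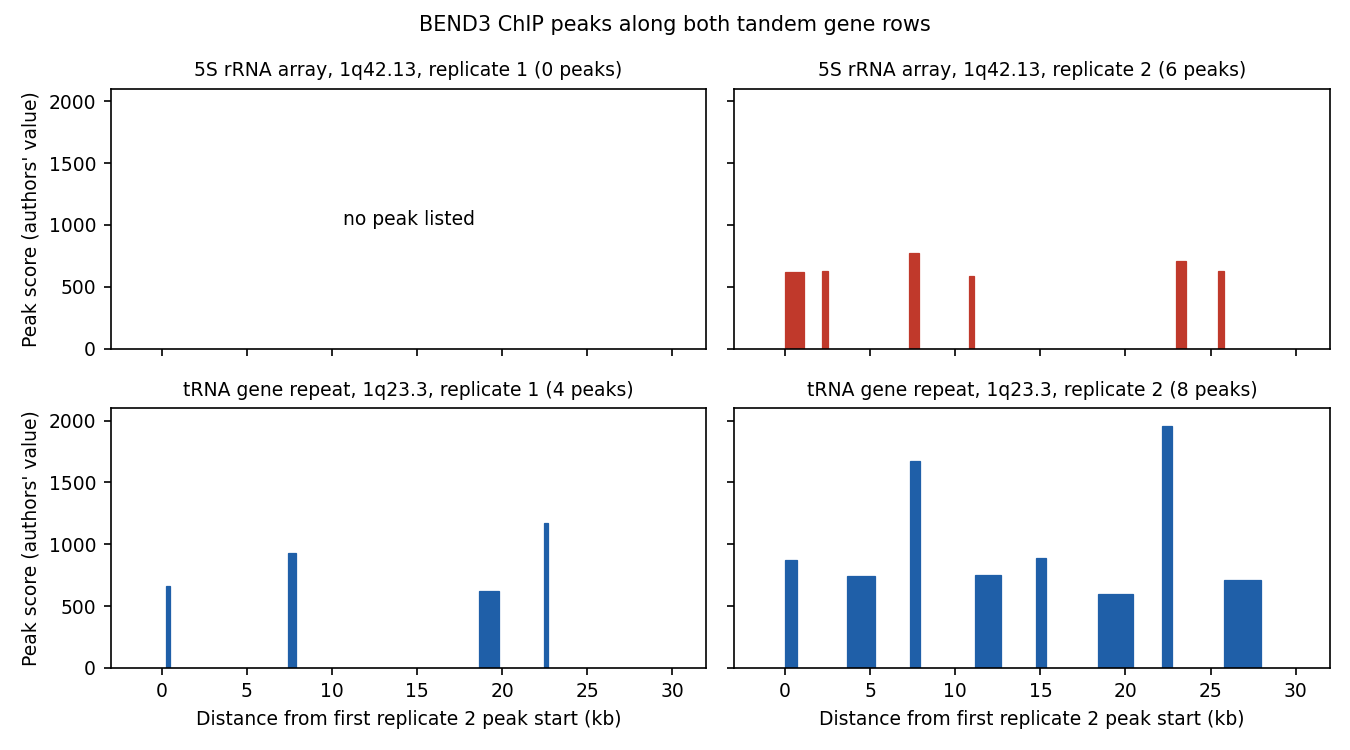
Peaks over the 5S rRNA array (top) and the tRNA gene repeat (bottom) in replicate 1 (left) and replicate 2 (right), with distance from the first replicate 2 peak start of each row in kb on the x axis and the authors' peak score on the y axis; each bar is 1 peak drawn at its width. The 5S array has 6 peaks, with scores of 587 to 776, in replicate 2 and none in replicate 1, and the tRNA repeat has 8 and 4.

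The nearest peaks beyond the stretch stood well apart from the array. On the side of lower coordinates the next replicate 2 peak was at 228674171 to 228674688 (score 950), 76.3 kb from the first 5S peak. Replicate 1 had a peak at the same place, at 228674306 to 228674643 (score 740). On the other side the next replicate 2 peak lay 94.0 kb beyond the last 5S peak, at 228870829 to 228871847 (score 476). The next replicate 1 peak on that side was 5970 kb away, at 234746534 to 234746738 (score 550). The edges of the stretch therefore decided no member: widening it by 50 kb on each side gave 6 peaks again in replicate 2 and 0 in replicate 1.

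The 5S peaks were unevenly spaced. Distances between neighbouring peak starts were, in order along the array, 2.16, 5.13, 3.50, 12.2 and 2.48 kb, with a mean of 5.08 ± 4.12 kb (SD over 5 distances). The comparison row was the tRNA gene repeat at 161405000 to 161445000 in band 1q23.3, where replicate 2 had 8 peaks. Its 7 distances lay between 3.63 and 3.80 kb, with a mean of 3.68 ± 0.0672 kb (SD). Between starts, the longest distance was 5.64 times the shortest in the 5S array and 1.05 times in the tRNA repeat. Between midpoints these ratios were 6.89 and 1.47, and between ends 8.79 and 2.30, so the evenness of the tRNA row was closest at its peak starts. When a single repeat length between 1.5 and 5 kb was fitted to the starts, the tRNA peaks left a root mean square residual of 1.05% of the best length (3.69 kb), and the 5S peaks one of 12.6% (2.57 kb). Lengths above 5 kb were not tried, so a longer repeat holding a pair of neighbouring tRNA peaks could not be found. The fitted length depended on the point of the peak that was used. For the 5S peaks it was 1.77 kb with midpoints (residual 10.6%) and 1.76 kb with ends (12.3%). For the tRNA peaks it was 3.74 kb with midpoints (7.87%) and 2.49 kb with ends (6.27%). Both rows were chosen from these lists, and the difference in regularity was not tested.

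**Figure D2:**
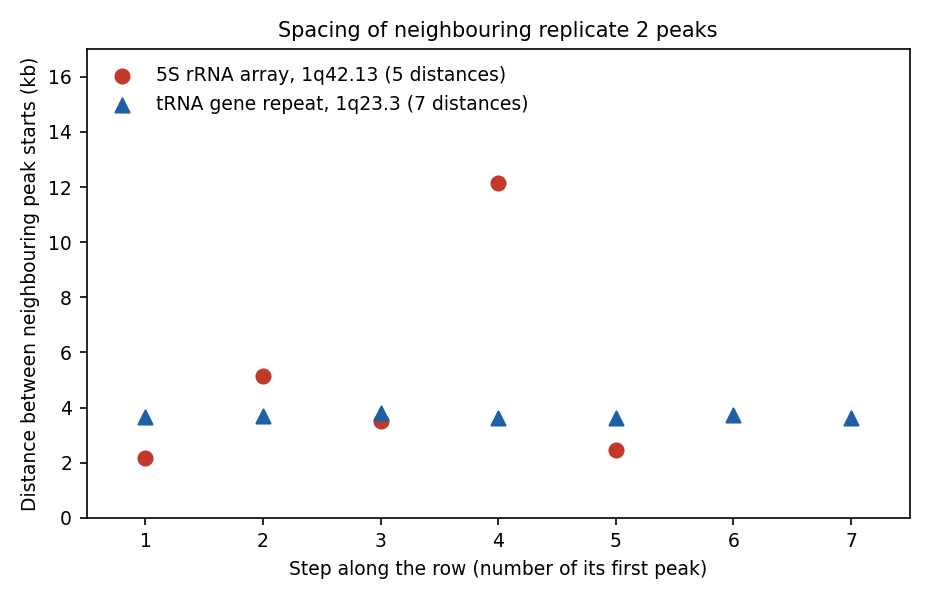
Distance in kb between the starts of neighbouring replicate 2 peaks (y axis) at each step along the row (x axis, numbered by the first peak of the step), for the 5S rRNA array (circles) and the tRNA gene repeat (triangles). The tRNA distances lie on a level line near 3.68 kb, and the 5S distances scatter from 2.16 to 12.2 kb.

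The 5S peaks ran from the middle of the replicate 2 list in width to well above it. Their median width was 489 bp (338 to 1136 bp), against 346.5 bp over the whole replicate 2 list and 334 bp over its 117 peaks with scores from 587 to 776, the range of the 5S peaks. Of the 6, 1 exceeded 1 kb, as did 6.53% of all peaks of that list. The first 5S peak ranked 43rd by width among 1118, and the fourth ranked 576th. In the tRNA repeat the 8 replicate 2 peaks had a median width of 1129 bp (553 to 2209 bp). There 4 peaks of 1536 to 2209 bp lay at every other position. The 4 narrower tRNA peaks, the first of the row and every other one after it, scored 875 to 1958. The 4 wide ones scored 594 to 752, within the range of the 5S peaks.

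**Figure D3:**
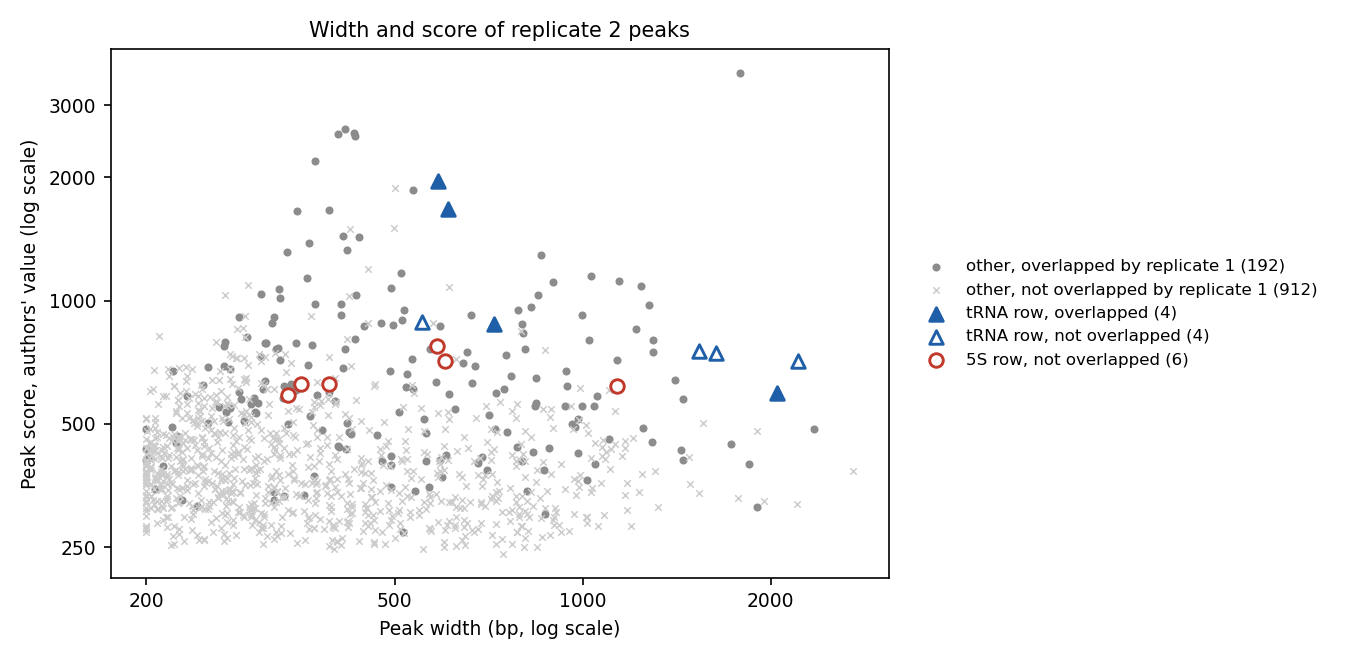
Width in bp (x axis, log scale) and the authors' score (y axis, log scale) of each replicate 2 peak, with 5S peaks as red circles, tRNA repeat peaks as blue triangles (filled where replicate 1 overlapped the peak), and other peaks in grey, as dots where overlapped and crosses where not. The 6 open red circles lie between scores of 587 and 776, and 1 of them is over 1 kb wide.

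By rank the 5S peaks stood high in the replicate 2 list without reaching its top. The third peak ranked 80th of 1118 and the fifth 110th. The sixth, second and first ranked 154th, 156th and 165th, and the fourth ranked 196th, or within the strongest 17.5%. All 6 were at or above the list's median score of 400, as were all 8 of the tRNA repeat and 50.2% of all peaks. Among the 174 replicate 2 peaks of chromosome 1 alone they ranked from 16th to 42nd. The tRNA repeat reached higher, with ranks from 7 to 188 in replicate 2 and from 8 to 45 among the 216 peaks of replicate 1. All 6 5S peaks had another peak of the list within 10 kb, and so had all 8 replicate 2 peaks of the tRNA repeat. The share was 5.19% over the list, both rows included, and the choice of a tandem row already favours such closeness.

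**Figure D4:**
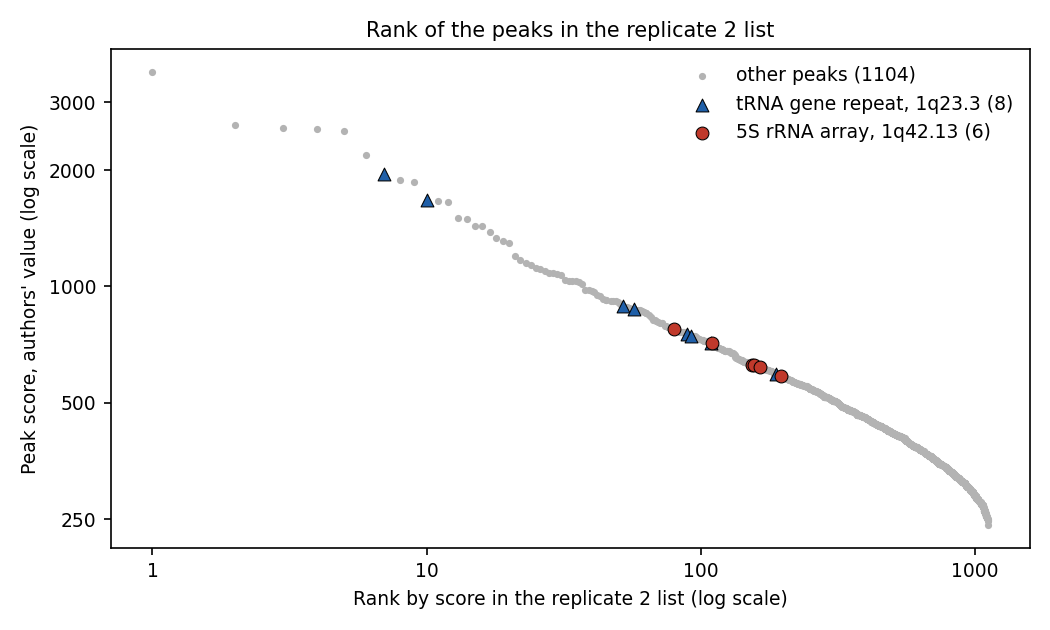
The authors' score (y axis, log scale) against rank by score (x axis, log scale) for the replicate 2 list, with 5S peaks as circles, tRNA repeat peaks as triangles and other peaks in grey. The 5S peaks occupy ranks 80 to 196, and the tRNA peaks ranks 7 to 188.

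The array was absent from the replicate 1 list. None of the 6 replicate 2 peaks was overlapped by at least 1 bp by a replicate 1 peak, and none had one within 10 kb. Over the whole replicate 2 list 17.5% of peaks were overlapped. Among the 117 peaks with scores in the range of the 5S peaks 46 were overlapped, or 39.3%, and 41.4% with the 5S peaks themselves left out. In that score range were also 4 wide tRNA peaks, of which 1 was overlapped. All 4 replicate 1 peaks of the tRNA repeat, at 161413199 to 161413435, 161420346 to 161420825, 161431550 to 161432709 and 161435361 to 161435611, fell on a replicate 2 peak. They matched the first, the third, the sixth and the seventh of the 8 there, and their scores were 662, 928, 623 and 1168. Replicate 1 thus listed peaks at one of the tandem rows and not at the other. The lowest score in its list was 254, and its list was shorter by 902 peaks. Scores were not compared between the lists, so 254 is no cut-off for the replicate 2 scores. Whether the array was enriched below the threshold in replicate 1 was not detectable from a peak list. The 6 peaks share an array of near-identical genes and one library, so they are not independent of one another, and the finding of BEND3 peaks at the 5S genes rests on replicate 2 alone.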

How the data were processed

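ChIP-seq libraries were amplified for 10 cycles and read for 101 cycles, per the labels' protocols. Tools named in the submitters' processing notes, without roles, are MACS2, Picard 2.9.4 and Novoalign, and the build named there is hg19 (GRCh37). The 2 peak lists, 1 per BEND3 ChIP, were used as deposited; no source used here states the calling threshold, and reads and an IgG list were not analysed here. The deposited score of each peak was 10 times the last of 3 value columns with decimals dropped, in 100% of peaks. The meaning of those columns is not given, so scores were printed as deposited and used for order within a list, with no fold drawn from them.

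Peaks overlapping each stretch by at least 1 bp were taken from the lists, and every such peak was named. Coordinates are 1-based. Bands of hg19 came from circlize 0.4.16 (R 4.3.3); gene order came from RefSeq (GRCh38.p14), which holds 17 of the 17 RNA5S genes, and no coordinates were taken from it. The members, the comparison row and the measures were chosen with earlier results of these data known. No test was run, as the stretch was chosen from the same lists; the planned description of gene-start sequences was not run. Functions were tested on simulated data. Python 3.11.15, numpy 2.4.6, pandas 2.3.3 and matplotlib 3.10.9 were used.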

Additional observations from a re-analysis of the deposited data

How the results depend on the processing

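Of 54 alternative values, 42 stayed within 1.5 times the reported count or within 1 SD over the peaks of the row. Not all of them were free to move, so this tally does not measure stability. Every peak of both rows was at or above its list's median score, and the score follows the last value column. For the 5S distances between starts the SD (4.12 kb) exceeded the median (3.50 kb), which made that limit loose. The number of 5S peaks was 6 in replicate 2 and 0 in replicate 1 with peaks at or above the median score, peaks wholly inside the stretch, the wider stretch and peaks merged within 1 kb, and 6 with the replicate 2 list cut to 216 peaks. With one ChIP or the other left out, the 5S array held 0 to 6 regions and the tRNA repeat 4 to 8. The median rank of the 5S peaks, 155 by score, was 380.5 by width and 106.5 by the second value column; that of the tRNA peaks of replicate 1, 26.5 by score, was 97.5 by width. The median distance in the tRNA repeat of replicate 2, 3.65 kb between starts, was 4.10 kb between midpoints and 4.56 kb between ends, since wide and narrow peaks alternate. The overlapped share in the 5S score range, 39.3%, was 17.5% over all peaks; the share without the 5S peaks was added after seeing the data. Peaks with a neighbour numbered 8 within 1 kb and 243 within 100 kb in replicate 2, and 0 and 12 in replicate 1. No paired analysis was possible because IgG has 1 library and no result comes from a test. With depth unknown, an absence from a list shows only that no peak passed its threshold.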

Other observations

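Chosen after the values were seen, the ratio of the last value column to the one before it, whose meaning no source used here states, was low at every 5S peak. It was 1.04 to 1.06 there, against a median of 1.21 over the replicate 2 list (1.01 to 1.37). The 6 peaks ranked 13th to 21st from the lowest of 1118. Of the other 15 peaks up to that rank, 4 lay within 50 kb of a chromosome end and 3 in centromeric, variable or stalk bands. Those places held 12 and 15 peaks of the whole list. The remaining 8 of the 15 lay elsewhere, and 12 of the 15 had a score above the highest of a 5S peak. A replicate 1 peak overlapped 6 of these 15, and none of the 5S peaks. The ratio was also low in the tRNA repeat. Its replicate 2 peaks ranked 24th to 274th from the lowest, from 1.06 to 1.18, against a first quartile of 1.18 over the list. Its 4 replicate 1 peaks ranked 10th to 15th of 216, from 1.08 to 1.12, against a median of 1.21.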
